A study of Mus musculus with 6 samples.

Results

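The cytochrome P450 genes of families 1 to 3 encode most of the liver's haem-containing monooxygenases for drugs, steroids and other foreign or fat-soluble compounds. The members described here are all genes of the array whose symbol places them in family 1, 2 or 3 with a subfamily of 1 letter, such as Cyp2b9. They number 59 of 22180 genes with a probe set that has 1 gene symbol, and they fall into 16 subfamilies. Where a gene had more than 1 probe set, the one with the highest mean over the arrays stood for it, which concerned 3 members, Cyp2c29, Cyp2c55 and Cyp2f2. A further 3 probe sets carry several P450 symbols each and were left out of the members. By RefSeq biotype 3 members are pseudogenes, Cyp2c53-ps, Cyp2d13 and Cyp2d37-ps.

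Liver tissue of 6 mice was profiled with 1 single-colour whole-transcript array per mouse. The 3 controls are wild-type C57BL/6J mice. The 3 ErbB4-/- mice lack the receptor tyrosine kinase ErbB4, carry a transgene that supplies it in the heart, without which the mutants die as embryos, and were backcrossed to the same strain. All 6 mice, controls included, received 1 injection of DEN on postnatal day 14. DEN is the usual short name of the carcinogen diethylnitrosamine, which liver P450 enzymes, chiefly Cyp2e1, convert to a DNA-alkylating form. The treatment protocol gives dissection after 32 weeks for every mouse, whereas the field for each sample names 32, 33 and 34 weeks for the controls, in replicate order, and 35, 36 and 37 weeks for the ErbB4-/- mice. If the field for each sample holds, genotype and age differ together. Whichever age holds, the receptor's loss cannot be told apart from the heart transgene or from other differences between the lines. The labels state neither the sex of the mice nor whether tumour or surrounding tissue was taken. Values are log2 signals, differences are ErbB4-/- minus control, means are given with the SD over n = 3 arrays, and SE is limma's standard error of a difference. Replicates are separate mice, so p-values measure the spread between these mice.

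P450 enzymes receive electrons from the reductase Por, in some reactions with help from cytochrome b5, and carry a haem that depends on the synthase Alas1. Transcription of many members follows ligand-activated receptors, with Ahr acting on family 1, the constitutive androstane receptor Nr1i3 on Cyp2b genes and the pregnane X receptor Nr1i2 on Cyp3a genes. In mouse liver a second layer is sex-biased: the pulses of growth hormone in males act through STAT5b, and some members are female-biased, such as Cyp2b9, Cyp2b13 and Cyp3a44, while others such as Cyp2d9 are male-biased.

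Sequences are shown for the Cyp2b genes because 2 of them, Cyp2b9 and Cyp2b13, stood out together on 1 array while their relative Cyp2b10 did not. Each is a RefSeq promoter window of 300 bases on build GRCm38.p6, from 250 bases before a start site to 50 after it, on the plus strand of chromosome 7, and capitals mark the bases at which Cyp2b9 and Cyp2b13 differ. The windows lie at chr7:26173159-26173458 for Cyp2b9, chr7:26061245-26061544 for Cyp2b13 and chr7:25897408-25897707 for Cyp2b10.
Cyp2b9: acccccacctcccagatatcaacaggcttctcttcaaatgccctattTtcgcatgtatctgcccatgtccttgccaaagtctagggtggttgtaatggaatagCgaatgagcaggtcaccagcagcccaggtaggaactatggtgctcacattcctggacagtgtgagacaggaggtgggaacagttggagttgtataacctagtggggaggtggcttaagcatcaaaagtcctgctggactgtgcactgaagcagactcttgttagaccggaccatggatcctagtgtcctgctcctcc
Cyp2b13: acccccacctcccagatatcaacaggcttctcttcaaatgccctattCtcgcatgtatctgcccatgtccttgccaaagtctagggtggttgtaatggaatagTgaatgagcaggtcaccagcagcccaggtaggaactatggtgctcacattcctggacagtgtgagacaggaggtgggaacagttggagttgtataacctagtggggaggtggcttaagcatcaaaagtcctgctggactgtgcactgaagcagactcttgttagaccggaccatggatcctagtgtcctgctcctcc
Cyp2b10: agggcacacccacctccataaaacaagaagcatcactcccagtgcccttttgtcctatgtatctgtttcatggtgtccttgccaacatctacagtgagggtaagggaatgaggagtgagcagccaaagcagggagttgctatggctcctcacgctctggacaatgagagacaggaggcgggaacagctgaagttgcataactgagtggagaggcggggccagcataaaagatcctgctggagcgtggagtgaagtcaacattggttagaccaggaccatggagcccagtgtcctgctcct
Cyp2b9 and Cyp2b13 were identical at 298 of 300 aligned positions, 99.3%. Counted from the first base of the window, the differences from Cyp2b9 to Cyp2b13 are T48C and C104T. Cyp2b10 shared 223 of 311 aligned positions, 71.7%, with either of them. The motif TTCNNNGAA, the palindromic type bound by STAT5, which reads the same on both strands, was in none of these 3 windows. Of the 49 members with a window 2 held it, Cyp2j11 and Cyp2j12, which is 4.08%, against 9.55% of all 27025 genes with a window and 8.30% of all 32851 windows. These are matches of letters in a short window and say nothing of binding elsewhere.

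The tissue label was checked against lists of cell type markers. The 8 hepatocyte markers, among them albumin (Alb) and transthyretin (Ttr), had mean log2 values per array of 12.74 to 12.83 in control and 12.60 to 12.76 in ErbB4-/- liver, and on 0 of 8 did the groups separate. Still, all 8 had lower means in ErbB4-/- liver, where 54.7% of all genes had higher ones. Their differences ran from -0.22 to -0.011, with a median of -0.041. All 8 macrophage markers, which identify Kupffer cells, lay lower in every ErbB4-/- array than in any control, with array means of 8.49 to 8.74 in control and 7.14 to 8.07 in ErbB4-/- liver, and so did all 6 neutrophil markers, with 5.49 to 7.61 and 4.66 to 5.05. Of the 6 endothelial markers 2 did not overlap, and array means were 8.33 to 8.84 in control and 7.00 to 8.28 in ErbB4-/- liver. The groups did not overlap, lower in ErbB4-/- liver, on 1 of 5 lymphocyte, 2 of 6 stellate cell and 0 of 4 cholangiocyte markers. The share of all genes without overlap was 3.81% in that direction. In either direction it was 8.33%, and 11.0% among genes at or above the median level. In whole tissue fewer cells of a type and less RNA per cell cannot be told apart. No gene of these lists passed over all genes, and the part of cell composition in the P450 values was not tested.

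Control replicate 1 stood apart from the other 5 arrays on a small set of members, so values are given with and without it. The array was singled out from its Cyp2b values, so Cyp2b9 and Cyp2b13 are part of that choice, and the counts that follow are a description. It lay at least 1 log2 unit outside the range of the other 5 arrays on 6 members, against 0.293% of all genes. No member stood out by that much on another array, where the shares of all genes were 0.018% for control replicate 2, 0.0676% for control replicate 3 and 0.0451%, 0.018% and 0.334% for ErbB4-/- replicates 1 to 3. The 4 high members were Cyp2b13, Cyp2b9, Cyp2c39 and Cyp2c69, against 0.131% of all genes, and the 2 low ones were Cyp2u1 and Cyp2d9, against 0.162%. Counted at any distance, control replicate 1 was the highest array on 15 members, against 16.0% of all genes, and the lowest on 11, against 16.7%. Together these are 44.1% of the members, against 32.8%.

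**Figure D1:**
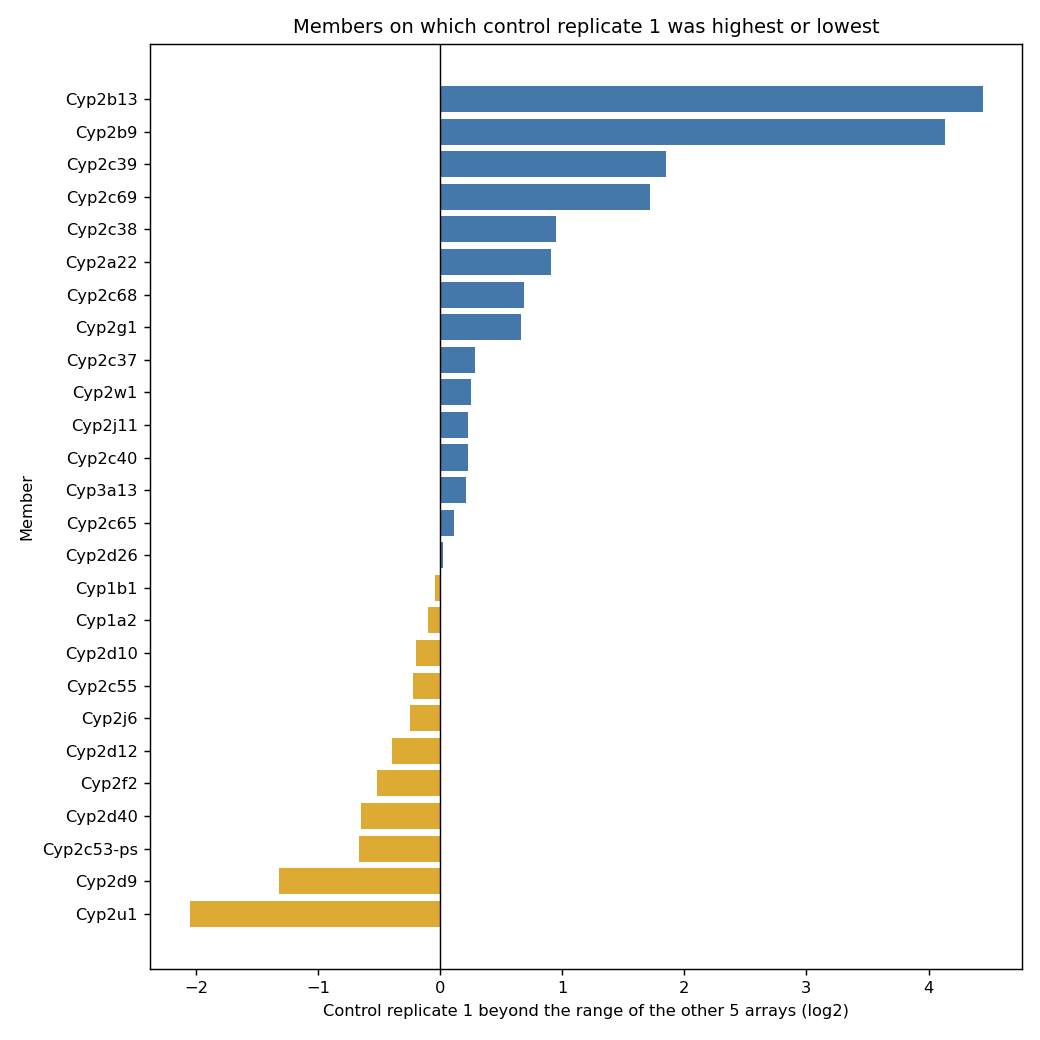
Bars show, for the 26 members on which control replicate 1 was the highest or the lowest array, how far it lay beyond the range of the other 5 arrays, in log2 units on the x axis. Blue bars are members on which it was highest and yellow bars members on which it was lowest. The bars of Cyp2b13 at 4.44 and Cyp2b9 at 4.13 exceed all others shown, and Cyp2u1 at -2.05 lies farthest below.

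The same array differed from the others in genes outside these families. Of 12 male-biased liver genes it was the lowest array on 10, each by at least 1 log2 unit, and the mean of that list was 7.00 there, against 9.99 and 10.05 in the other controls and 9.84 to 10.17 in ErbB4-/- liver. Among them the organic anion transporter gene Slco1a1 measured 7.64 against 11.01 to 11.54, and the major urinary protein gene Mup20 11.51 against 13.53 to 13.62. Of 10 female-biased genes outside families 1 to 3 it was the highest on 7, 4 of them by at least 1 log2 unit, such as the flavin monooxygenase gene Fmo2 with 8.31 against 6.43 to 6.81 and the peroxisomal transporter gene Abcd2 with 10.40 against 7.53 to 8.63. Sex chromosome transcripts did not set the array apart in this way. Xist, the RNA of the inactive X chromosome, measured 3.54 in control replicate 1 against 3.32 to 3.60 on the other arrays. These values lay below the median level of all genes, 5.27, where a signal can be background. The Y-linked genes Uty, Kdm5d and Eif2s3y measured 7.77, 6.91 and 8.85 in control replicate 1, against 7.43 to 7.73, 7.02 to 7.07 and 8.77 to 9.08, all above that level. Acute phase genes were also high on this array, which was the highest on 9 of 11, with the serum amyloid gene Saa2 at 12.12 against 8.49 to 10.81 and the orosomucoid gene Orm2 at 12.89 against 8.90 to 11.22. The acute phase list had a mean of 12.06 there, 11.48 in control replicate 3, 10.76 in control replicate 2 and 10.66 to 11.04 in ErbB4-/- liver. Neutrophil markers had their highest array mean there, 7.61, but control replicate 3 was close at 7.25. Control replicate 2 had 5.49, so this trait was not particular to control replicate 1. By genotype, 10 of the 11 acute phase genes had lower means in ErbB4-/- liver. Their median difference was -0.42 both with all arrays and without control replicate 1. Crp and Steap4, 2 of the 11, were lower in every ErbB4-/- array than in any control, against 3.81% of all genes. Their differences were -0.78 and -1.04, and no gene of the list passed over all genes. The part of these differences in the P450 values was not tested.

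The genotypes were then compared member by member, the question being whether P450 levels in carcinogen-treated liver differ with loss of ErbB4. None of the 59 members passed over all genes (limma, lowest adjusted p = 0.549, Cyp3a44), where 1 gene in all did, 0.00451%. At an unadjusted p under 0.05 there were 8 members, against 5.72% of all genes. These were 2 members with higher values, Cyp2c23 and Cyp2d37-ps, against 2.77%, and 6 with lower values, Cyp2b10, Cyp2j9, Cyp3a11, Cyp3a13, Cyp3a44 and Cyp3a59, against 2.94%. The arrays of the groups did not overlap on 13 members, against 8.33% of all genes. Of these 4 were higher in ErbB4-/- liver, 6.78% of the members against 4.52% of all genes, and 9 were lower, 15.3% against 3.81%. Of the 40 members at or above the median level of all genes 12 did not overlap, 30.0%, against 11.0% of all genes at that level. With a difference of at least 0.58 as well, there were 5 members, against 1.15% of all genes, with Cyp2d37-ps and Cyp2u1 higher, against 0.18%, and Cyp2j9, Cyp3a13 and Cyp3a44 lower, against 0.974%. The median difference of the 59 members was -0.043, against 0.015 over all genes, with 27 higher and 32 lower means.

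**Figure D2:**
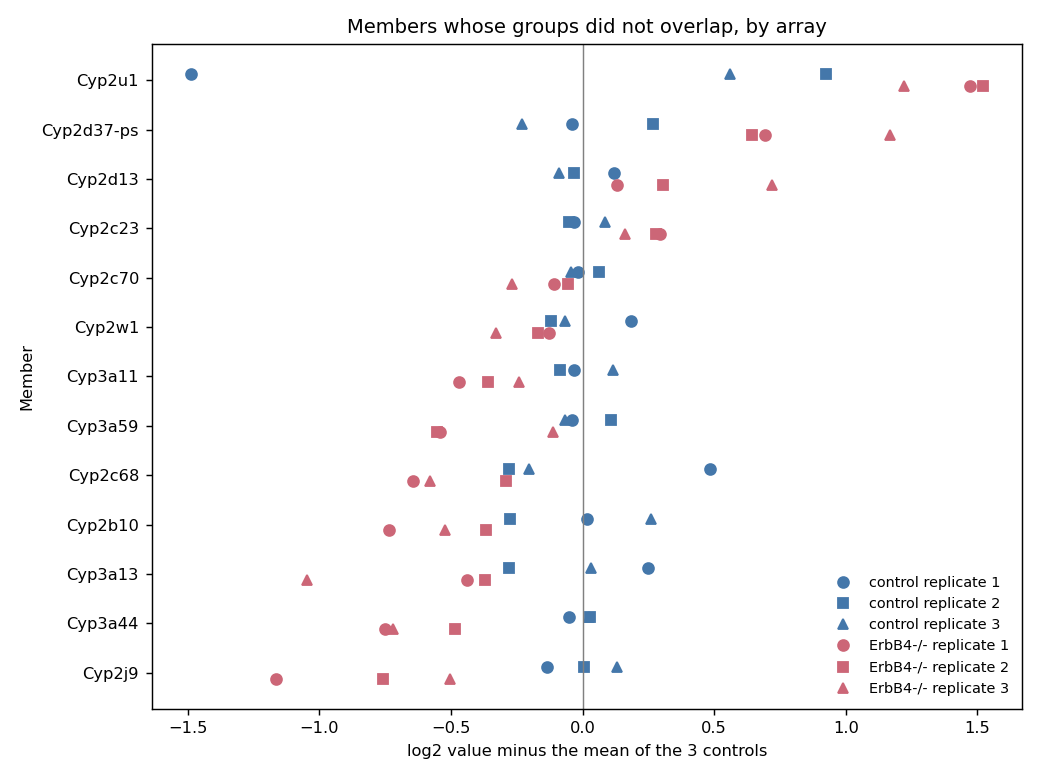
Each row is 1 of the 13 members whose control and ErbB4-/- arrays did not overlap. Points are single arrays, blue for control and red for ErbB4-/- liver, with a marker shape per replicate number, and the x axis gives the log2 value minus the mean of the 3 controls. The lowest of the 3 Cyp2u1 control points is control replicate 1, and the 4 Cyp3a members shown all lie to the left of their controls.

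By subfamily, the median differences were -0.095 for Cyp1a, -0.047 for Cyp2a, -0.54 for Cyp2b, -0.11 for Cyp2c, 0.12 for Cyp2d, -0.029 for Cyp2j and -0.36 for Cyp3a. Lower means prevailed in Cyp2b, with 5 of 5, and in Cyp3a, with 6 of 7, whereas 9 of 10 Cyp2d members had higher means, against 54.7% of all genes. Without control replicate 1 the Cyp2b median was -0.11 and 2 of its 5 members had higher means, the Cyp2c median was -0.012, the Cyp2a median turned to 0.065, and the Cyp2d median was 0.096 with 7 of 10 higher. The Cyp3a median was -0.37 there, again with 6 of 7 lower. Leaving out that array turned the sign of 16 of 59 members and of 2556 of 22180 genes, and no member passed (limma, lowest adjusted p = 0.813), with 0.0% of all genes called. The groups then did not overlap on 18 members, against 17.0% of all genes. Members without overlap over all arrays are necessarily among them. These were 7 members with higher values, against 9.63%, and 11 with lower values, against 7.4%. At an unadjusted p under 0.05 there were 9 members, against 4.77% of all genes, with 5 higher members, against 2.49%, and 4 lower ones, against 2.29%.

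**Figure D3:**
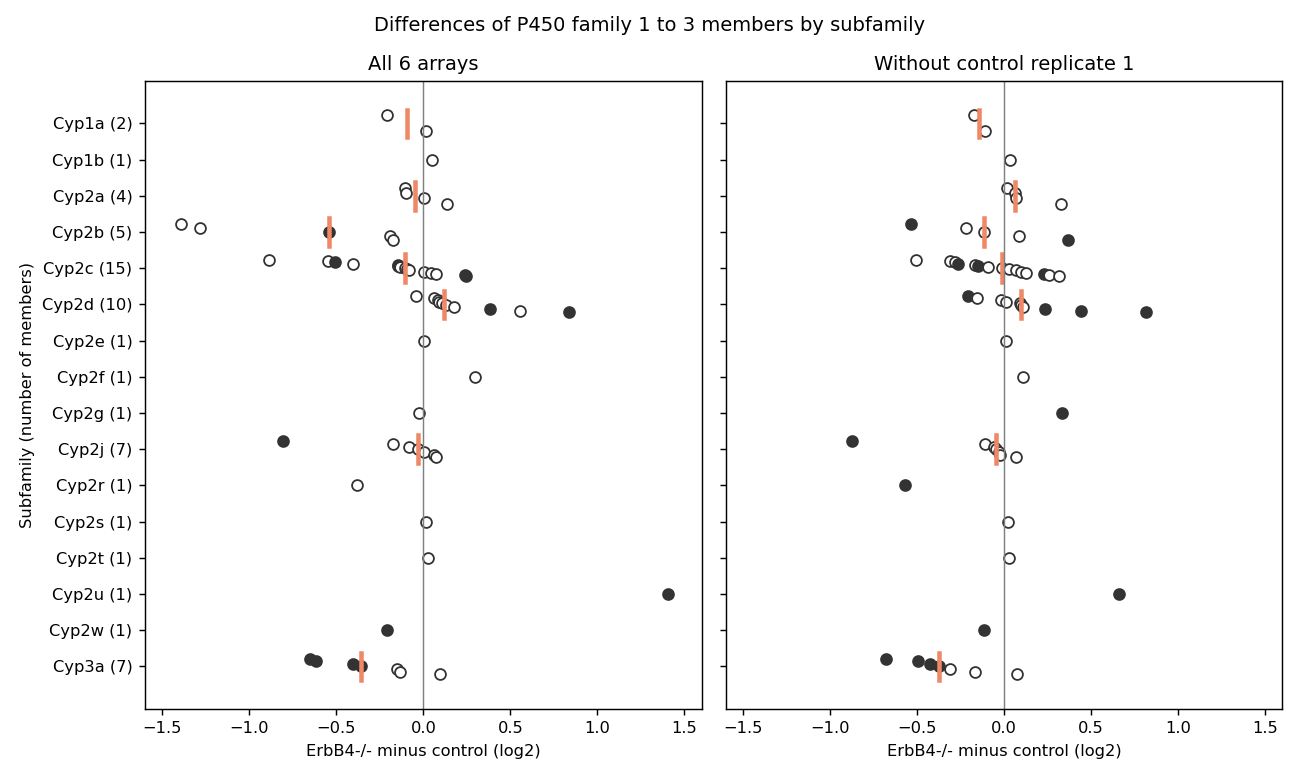
Each point is a member, in a row for its subfamily with the number of members in brackets, and the x axis gives the difference ErbB4-/- minus control in log2 units, for all 6 arrays on the left and without control replicate 1 on the right. Filled points are members whose groups did not overlap, and orange bars are subfamily medians where there is more than 1 member. The Cyp2b row shifts from a median of -0.54 on the left to -0.11 on the right, while the Cyp3a row stays at -0.36 and -0.37.

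Family 1 enzymes oxidise planar aromatic compounds and are the classical targets of the aryl hydrocarbon receptor. Cyp1a2, the form that liver expresses without an inducer, measured 11.98, 12.36 and 12.35 on control arrays 1 to 3 and 12.40, 12.26 and 12.08 on ErbB4-/- arrays 1 to 3. The groups overlapped, and control replicate 1 was the lowest array. Cyp1a1, the strongly inducible form, measured 4.77, 4.81 and 4.56 in the controls and 4.59, 4.56 and 4.37 in the ErbB4-/- mice, a difference of -0.21 (SE 0.098, limma adjusted p = 0.760). Its values lay below the median level of all genes, 5.27, where a signal can be background. Cyp1b1, mainly an enzyme outside hepatocytes, measured 3.95, 3.98 and 3.98 in the controls and 3.98, 4.09 and 3.98 in the ErbB4-/- mice, with 4 of the 6 arrays at exactly the same value.

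The Cyp2a enzymes hydroxylate steroids and coumarin. Cyp2a12 measured 13.24, 13.22 and 13.18 in control and 13.26, 13.32 and 13.07 in ErbB4-/- liver, with overlap. Cyp2a5, the coumarin hydroxylase, measured 6.78, 7.02 and 6.94 in the controls and 6.72, 7.00 and 7.42 in the ErbB4-/- mice, a difference of 0.14 that rested on ErbB4-/- replicate 3, the highest array, and was -0.050 without it. Cyp2a4, the steroid hydroxylase that is female-biased in mouse liver, had its highest values in ErbB4-/- replicate 3 with 9.54 and control replicate 1 with 9.45, against 8.76 to 9.08 on the other 4. Cyp2a22, listed here as female-biased, measured 7.42 in control replicate 1 and 5.90 to 6.52 elsewhere. No Cyp2a member separated the groups.

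Cyp2b enzymes metabolise barbiturates and steroids. Cyp2b9, a female-biased testosterone hydroxylase, measured 12.59, 7.84 and 8.46 on control arrays 1 to 3 and 8.16, 8.33 and 8.23 on ErbB4-/- arrays 1 to 3. Cyp2b13, its close relative, measured 10.91, 5.89 and 6.01 on control arrays 1 to 3 and 6.46, 6.16 and 6.34 on ErbB4-/- arrays 1 to 3. On both genes control replicate 1 stood above 5 arrays that lay close together, by 4.13 log2 units for Cyp2b9 and 4.44 for Cyp2b13. The group means were 9.63 ± 2.58 for the controls and 8.24 ± 0.086 for the ErbB4-/- mice in the case of Cyp2b9, a difference of -1.39 (SE 1.26, limma adjusted p = 0.777). For Cyp2b13 they were 7.60 ± 2.86 for the controls and 6.32 ± 0.15 for the ErbB4-/- mice, a difference of -1.28 (SE 1.40, limma adjusted p = 0.801). These differences came from that 1 array. Without it the Cyp2b9 difference was 0.087 (SE 0.20), and for Cyp2b13 the sign turned, with every ErbB4-/- array above both remaining controls and a difference of 0.37 (SE 0.11, limma adjusted p = 0.813). Close relatives can share array signal. Only promoter windows were aligned here, and whether the probe sets tell Cyp2b9 and Cyp2b13 apart was not tested.

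Cyp2b10 is the standard target gene of the constitutive androstane receptor. Its 6 values were 7.01, 6.72 and 7.25 on control arrays 1 to 3 and 6.26, 6.63 and 6.47 on ErbB4-/- arrays 1 to 3. All ErbB4-/- arrays lay below all controls, and control replicate 1 lay between the other controls. The difference was -0.54, 1.46-fold lower (SE 0.16, limma adjusted p = 0.760), and -0.53 without control replicate 1. The gap between the lowest control and the highest ErbB4-/- array was narrow, 6.72 against 6.63. Cyp2b19, a keratinocyte enzyme, read 2.93, 3.08 and 2.93 in the controls and 2.60, 2.84 and 2.93 in the ErbB4-/- mice. Cyp2b23 read 3.37, 3.00 and 3.39 in the controls and 2.86, 3.55 and 2.85 in the ErbB4-/- mice. Both lay below the median level of all genes, and their groups overlapped.

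**Figure D4:**
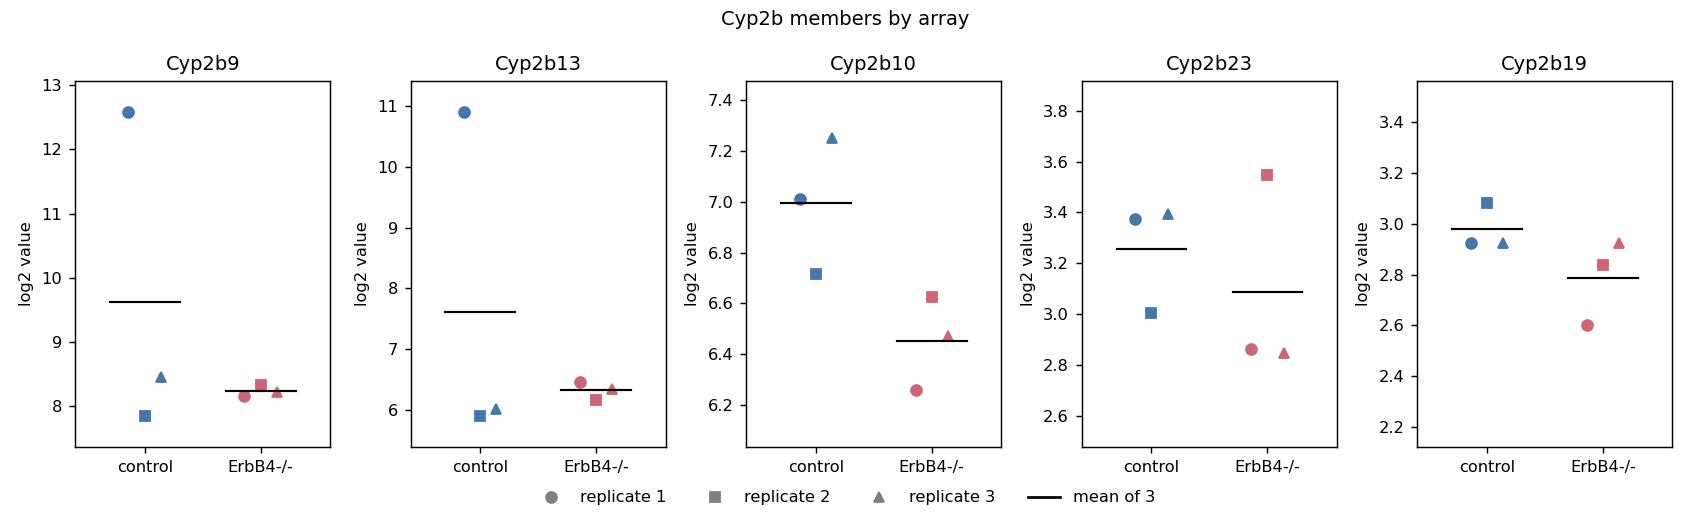
Each panel shows the log2 values of 1 Cyp2b member on the y axis, whose range differs between panels, for 3 control arrays in blue and 3 ErbB4-/- arrays in red. Marker shapes give the replicate number and the black line is the mean of 3 arrays. Control replicate 1 lies at 12.59 for Cyp2b9 and 10.91 for Cyp2b13, far above the other points, but at 7.01 for Cyp2b10, among the controls.

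Cyp2c is the subfamily with most members here, 15, and its enzymes epoxidise arachidonic acid and metabolise drugs. Like Cyp2b9, Cyp2c39 and Cyp2c69 were highest on control replicate 1. Cyp2c39, a retinoic acid hydroxylase, measured 8.06, 5.51 and 5.80 on control arrays 1 to 3 and 5.90, 6.21 and 5.62 on ErbB4-/- arrays 1 to 3. Cyp2c69 measured 8.70, 6.98 and 6.79 in the controls and 6.58, 6.90 and 6.34 in the ErbB4-/- mice. The other 5 arrays of Cyp2c39 spanned 5.51 to 6.21 and those of Cyp2c69 6.34 to 6.98. The differences were -0.55 for Cyp2c39 (SE 0.70, limma adjusted p = 0.822) and -0.88 for Cyp2c69 (SE 0.53, limma adjusted p = 0.760). Without the array they were 0.26 and -0.28. Their neighbour Cyp2c38 had 11.47 there and 9.63 to 10.53 elsewhere, while Cyp2c40, from the same gene cluster and listed as female-biased, had only 7.48 against 6.88 to 7.26.

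Of the 15 Cyp2c members, 3 separated the groups, against 8.33% of all genes. Cyp2c23, an arachidonic acid epoxygenase, measured 11.53, 11.51 and 11.65 in the controls and 11.86, 11.84 and 11.73 in the ErbB4-/- mice. All its ErbB4-/- values lay above all controls, and the difference was small, 0.25 (SE 0.066, limma adjusted p = 0.760), and 0.23 without control replicate 1. Cyp2c68 measured 10.50, 9.74 and 9.81 in the controls and 9.37, 9.72 and 9.44 in the ErbB4-/- mice, where the difference of -0.51 became -0.26 without the high control replicate 1. A brighter probe set that carries the symbols Cyp2c67 and Cyp2c68, left out of the members, did not show this. It read 12.28, 12.40 and 12.44 in the controls and 12.39, 12.53 and 11.91 in the ErbB4-/- mice, with overlap, a difference of -0.097 and control replicate 1 as the lowest control. Cyp2c70, the enzyme that makes muricholic acids from chenodeoxycholic acid in mice, measured 12.43, 12.51 and 12.40 in the controls and 12.33, 12.39 and 12.18 in the ErbB4-/- mice, a difference of -0.14 (SE 0.073) that was -0.082 without ErbB4-/- replicate 3. The groups overlapped on the other 12, among which Cyp2c29, Cyp2c37, Cyp2c50 and Cyp2c54 had differences between -0.14 and 0.045. The second probe set of Cyp2c29 lay between 3.33 and 3.86 and differed in sign, 0.19, from the brighter one, -0.11. Cyp2c55 ranged from 7.00 to 8.01, both in controls, and its second probe set also gave a lower mean in ErbB4-/- liver, by -0.21 against -0.084. The pseudogene Cyp2c53-ps ranged from 3.69 in control replicate 1 to 5.84 in control replicate 2, with no separation. Cyp2c65 and Cyp2c66, forms of the gut, lay between 2.44 and 3.04.

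Cyp2d genes lie in 1 cluster on chromosome 15, and their copies are hard to separate on an array. Cyp2d37-ps, a pseudogene, measured 9.41, 9.72 and 9.22 on control arrays 1 to 3 and 10.14, 10.09 and 10.62 on ErbB4-/- arrays 1 to 3. All ErbB4-/- arrays were above all controls, a difference of 0.84, 1.78-fold (SE 0.19, limma adjusted p = 0.760), and 0.82 without control replicate 1. Cyp2d13, another transcribed pseudogene, also separated, with 11.39, 11.24 and 11.18 in the controls and 11.40, 11.58 and 11.99 in the ErbB4-/- mice, a difference of 0.38 that was 0.22 without ErbB4-/- replicate 3. The gap there was narrow, as control replicate 1 and ErbB4-/- replicate 1 measured 11.39 and 11.40. Signal from a related transcribed copy cannot be told apart from signal of these pseudogenes. Cyp2d9, the male-biased steroid 16-alpha-hydroxylase, measured 9.50, 10.82 and 10.95 on control arrays 1 to 3 and 10.96, 10.94 and 11.05 on ErbB4-/- arrays 1 to 3. Its 5 other arrays were within 10.82 to 11.05, control replicate 1 lay outside them by -1.32 log2 units, and the difference of 0.56 became 0.093 without it. Cyp2d40 was low on the same array, 7.05 against 7.70 to 7.99, and its difference of 0.083 was -0.21 without it. The main liver forms Cyp2d10, Cyp2d22 and Cyp2d26 differed by 0.089, 0.18 and -0.043, with overlap, and Cyp2d11, Cyp2d12 and Cyp2d34 lay below the median level.

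Cyp2e1, which oxidises ethanol and activates the carcinogen these mice received, measured 13.86, 13.79 and 13.89 on control arrays 1 to 3 and 13.85, 13.85 and 13.85 on ErbB4-/- arrays 1 to 3. Its groups overlapped, and its difference of 0.0034 (SE 0.049) turned sign under both rescalings of the arrays. ErbB4-/- values of this gene are exactly equal on all 3 arrays, so the SE may be too small. Cyp2f2, a naphthalene-activating enzyme of periportal hepatocytes and airway cells, measured 12.22, 12.74 and 12.83 in the controls and 13.04, 12.82 and 12.83 in the ErbB4-/- mice. Control replicate 1 was its lowest array, and the difference of 0.30 was 0.11 without it. A second, dimmer Cyp2f2 probe set had the same lowest array, 6.32, and a difference of 0.40. Cyp2g1, an olfactory form listed here as female-biased in liver, measured 6.20 in control replicate 1, 5.08 and 5.14 in the other controls and 5.42, 5.38 and 5.53 in ErbB4-/- liver. Without control replicate 1 all ErbB4-/- arrays lay above both controls, with a difference of 0.33.

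Cyp2j enzymes epoxidise polyunsaturated fatty acids. Cyp2j9, first known from brain, measured 7.22, 7.36 and 7.49 on control arrays 1 to 3 and 6.19, 6.60 and 6.85 on ErbB4-/- arrays 1 to 3. Every ErbB4-/- array lay below every control, a difference of -0.81, 1.75-fold lower (SE 0.18, limma adjusted p = 0.760). Control replicate 1 was among the controls here, and without it the difference was -0.88. Its neighbours on chromosome 4 did not follow. Cyp2j5, the main liver form, measured 12.31, 12.47 and 12.44 in the controls and 12.44, 12.50 and 12.29 in the ErbB4-/- mice, and Cyp2j6 8.22, 8.56 and 8.48 in the controls and 8.49, 8.47 and 8.53 in the ErbB4-/- mice. Cyp2j8, Cyp2j11, Cyp2j12 and Cyp2j13 lay below the median level with differences between -0.17 and 0.062.

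Cyp2u1, a fatty acid hydroxylase that is male-biased in mouse liver, measured 6.33, 8.74 and 8.38 on control arrays 1 to 3 and 9.28, 9.34 and 9.04 on ErbB4-/- arrays 1 to 3. All ErbB4-/- arrays lay above all controls, although control replicate 1 lay outside the other arrays by -2.05 log2 units. The difference of 1.40, 2.65-fold (SE 0.64, limma adjusted p = 0.760), was 0.66 (SE 0.16) without that array (limma adjusted p = 0.813). Cyp2r1, the vitamin D 25-hydroxylase, measured 8.29, 8.93 and 8.78 in the controls and 8.75, 8.54 and 7.56 in the ErbB4-/- mice. ErbB4-/- replicate 3 was its lowest array, and the difference of -0.38 was -0.020 without it and -0.57 without control replicate 1. Cyp2w1 did not overlap either, with 5.12, 4.81 and 4.86 in the controls and 4.80, 4.76 and 4.60 in the ErbB4-/- mice, at a level below the median of all genes, and its difference of -0.21 was -0.12 without control replicate 1, its highest array. Cyp2s1, mainly an epithelial form, read 4.83, 4.83 and 4.80 in the controls and 4.93, 5.14 and 4.45 in the ErbB4-/- mice. Cyp2t4 read 4.32, 4.31 and 4.32 in the controls and 4.32, 4.36 and 4.35 in the ErbB4-/- mice. Both lay below that level too, with overlap.

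Cyp3a enzymes oxidise bile acids, steroids and a large share of drugs, and their cluster lies on chromosome 5. Of 7 members, 4 did not overlap between the groups, all lower in ErbB4-/- liver, where 3.81% of all genes were. These 4 lay at or above the median level, where 635 of 11090 genes were lower without overlap. Control replicate 1 stood at least 1 log2 unit apart on none of the 7. Cyp3a44, a female-biased form, measured 6.92, 7.01 and 7.00 on control arrays 1 to 3 and 6.23, 6.49 and 6.26 on ErbB4-/- arrays 1 to 3. The 3 controls lay close together, all ErbB4-/- arrays were below them, and the difference of -0.65 (SE 0.086), 1.57-fold lower, had the smallest p of any member (limma, adjusted p = 0.549). Cyp3a11, the main drug-metabolising form of adult liver and a pregnane X receptor target, measured 12.05, 11.99 and 12.20 on control arrays 1 to 3 and 11.61, 11.72 and 11.84 on ErbB4-/- arrays 1 to 3, a difference of -0.36 (SE 0.086, limma adjusted p = 0.760). Cyp3a13, also found in intestine, measured 11.19, 10.66 and 10.97 on control arrays 1 to 3 and 10.50, 10.57 and 9.89 on ErbB4-/- arrays 1 to 3. Its difference of -0.62 (SE 0.23) was -0.41 without ErbB4-/- replicate 3, its lowest array. Cyp3a59 measured 8.47, 8.62 and 8.44 on control arrays 1 to 3 and 7.97, 7.95 and 8.39 on ErbB4-/- arrays 1 to 3, where ErbB4-/- replicate 3 lay close to the controls, a difference of -0.40 (SE 0.14).

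**Figure D5:**
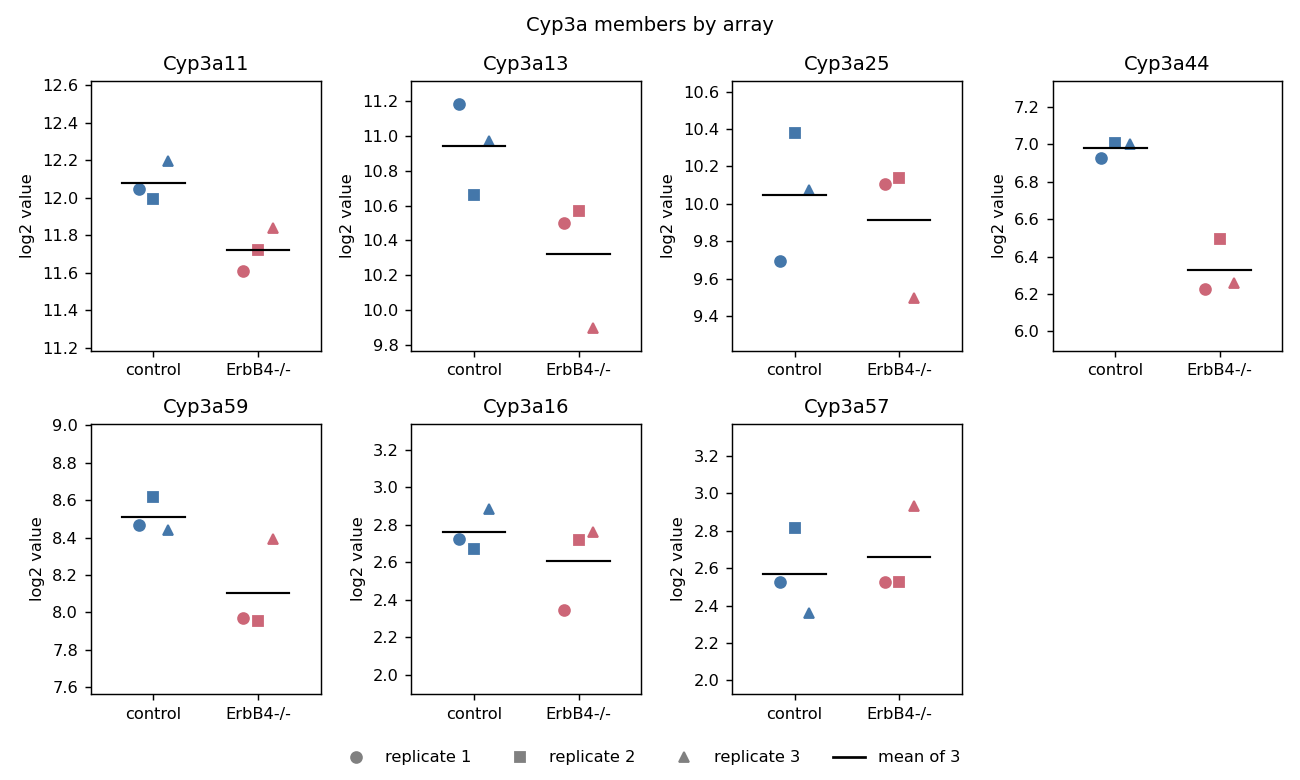
Each panel shows 1 of the 7 Cyp3a members, with log2 values on the y axis, whose range differs between panels, for 3 control arrays in blue and 3 ErbB4-/- arrays in red. Marker shapes give the replicate number and the black line is the mean of 3 arrays. Cyp3a11, Cyp3a13, Cyp3a44 and Cyp3a59 show no overlap between the groups, while the arrays of Cyp3a25, Cyp3a16 and Cyp3a57 overlap.

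Cyp3a25 overlapped, with 9.70, 10.38 and 10.08 in the controls and 10.11, 10.14 and 9.50 in the ErbB4-/- mice, and its low arrays were control replicate 1 and ErbB4-/- replicate 3. Cyp3a16, a fetal and female form, and Cyp3a57 stayed between 2.35 and 2.93, below the median level. Of the 3 probe sets with several P450 symbols, the pair that each carry 4 Cyp3a symbols also lay lower in every ErbB4-/- array, the first with 11.75, 11.72 and 11.91 in control and 11.42, 11.40 and 11.60 in ErbB4-/- liver, and the second with a difference of -0.31. They share symbols with Cyp3a11 and Cyp3a44 and are not independent of them. Whether the probe sets of the single Cyp3a members share signal with each other was not tested. The macrophage and neutrophil markers and 10 of the 11 acute phase genes given above differed in the same direction as these Cyp3a members. Their part in the result was not tested.

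The female-biased members did not act as 1 block. Of 10 measured on a list of 12, control replicate 1 was the highest array on 6, Cyp2b9, Cyp2b13, Cyp2c69, Cyp2c40, Cyp2a22 and Cyp2g1, and it was not on Cyp2a4, Cyp2b10, Cyp3a16 and Cyp3a44. The list's mean was 7.94 on that array, 6.47 and 6.54 in the other controls and 6.40 to 6.49 in ErbB4-/- liver. The median difference of the 10 was -0.35 with all arrays and 0.024 without control replicate 1. Of the male-biased members, Cyp2d9 and Cyp2u1 were both lowest in control replicate 1. These lists were drawn up with results of these data known and give no independent support.

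Regulators and partners of the P450 enzymes were measured as lists, and none of their genes passed over all genes (limma, lowest adjusted p = 0.760 for the regulators). Of 11 regulators 2 did not overlap, both lower in ErbB4-/- liver, against 3.81% of all genes in that direction and 11.0% in either direction among genes at or above the median level, where 10 of the 11 lay. Ahr, the aryl hydrocarbon receptor, measured 9.35, 9.09 and 9.07 on control arrays 1 to 3 and 8.50, 8.75 and 8.09 on ErbB4-/- arrays 1 to 3, a difference of -0.72 (SE 0.18). Hnf4a, a hepatocyte transcription factor, measured 11.02, 10.79 and 11.17 in the controls and 10.68, 10.74 and 10.67 in the ErbB4-/- mice, which is a difference of -0.30 (SE 0.10). Ahr was lowest in ErbB4-/- replicate 3, and control replicate 1 did not set either difference, at -0.63 and -0.28 without it. Nr1i3 measured 10.53, 9.83 and 9.76 in the controls and 10.23, 10.55 and 10.77 in the ErbB4-/- mice, where 2 controls lay below and control replicate 1 lay within the ErbB4-/- range. Its difference of 0.48 (SE 0.25) was 0.72 (SE 0.17, limma adjusted p = 0.813) without control replicate 1. All ErbB4-/- arrays then lay above both controls, against 9.63% of all genes. Nr1i2 measured 8.60, 8.15 and 8.62 in the controls and 8.35, 8.36 and 8.48 in the ErbB4-/- mice, with overlap. The median difference of the 11 regulators was -0.042.

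Of 5 partner and haem genes, Hmox1, the enzyme that breaks down haem, was the only one without overlap, against 3.81% of all genes in that direction. It measured 7.77, 7.53 and 7.71 in the controls and 7.42, 6.82 and 6.69 in the ErbB4-/- mice, a difference of -0.70 (SE 0.20). Alas1, which starts haem synthesis, varied widely among ErbB4-/- arrays, 9.70, 9.22 and 11.78 for replicates 1 to 3 against 10.79, 10.65 and 10.83 in control. Cyb5a was given the same value, 10.70, on all 6 arrays, and Por, the reductase, is not analysed here. In the growth hormone axis all 11 genes lay at or above the median level, and 3 did not overlap, against 11.0% of all genes at that level. These were the receptor gene Ghr with 9.02, 9.53 and 9.41 in the controls and 9.61, 9.76 and 9.57 in the ErbB4-/- mice, Stat5a with 6.07, 6.28 and 6.31 in the controls and 6.48, 6.51 and 6.33 in the ErbB4-/- mice, and Igf1 with 10.99, 10.98 and 11.10 in the controls and 10.89, 10.91 and 10.91 in the ErbB4-/- mice. Control replicate 1 was the lowest array for Ghr and Stat5a, whose differences of 0.33 and 0.22 were 0.18 and 0.15 without it. The Igf1 difference of -0.12 was -0.079 without control replicate 3. Means were higher on 5 of the 11 genes and lower on 6. Igfals had the smallest p of the list, with overlap and a difference of 0.27 (SE 0.10, limma adjusted p = 0.760). Also with overlap, the differences were -1.10 (SE 0.47) for Cish, -0.71 (SE 0.58) for Socs2 and 0.91 (SE 0.65) for Bcl6. Cux2, a female-biased repressor of male-biased genes, measured 6.33 in control replicate 1 and 5.24 to 5.58 elsewhere. Pericentral genes, which share their zone of the liver lobule with Cyp2e1 and Cyp1a2, had array means of 9.41 to 9.43 in control and 9.46 to 9.51 in ErbB4-/- liver over 10 genes, with 6 of 10 higher and a median difference of 0.062, and glutamine synthetase (Glul) measured 12.01, 12.03 and 12.06 in the controls and 12.04, 12.02 and 12.01 in the ErbB4-/- mice.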

How the data were processed

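Liver RNA of 6 mice, 3 per genotype, was extracted with Trizol and labelled for Affymetrix whole-transcript arrays, per the labels' protocols. The deposited table holds 1 log2 value per probe set and array, 41345 probe sets in all. The authors' background correction, normalization and summarisation are not given in the sources used here, and the log2 scale was read from the values, 1.74 to 14.4. Array medians were 4.83 to 4.86. Precision is limited by the number of arrays. Over all genes, a difference had a median standard error of 0.10. The design text calls the mice biological replicates.

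Genes were named from the platform annotation, with 23521 probe sets of 1 symbol, 1814 of several and 16010 unnamed here. All 59 members matched RefSeq by gene identifier, and 0 symbols changed. No filter on low signal was applied. Promoters come from RefSeq windows of GRCm38.p6 and were aligned with Biopython 1.88. The build of the array design is not given, so other coordinates were not used.

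lmFit and eBayes of limma 3.58.1 (R 4.3.3), two-sided, were run over 22180 genes with genotype as the only term and Benjamini-Hochberg adjustment at 0.05, after a test on simulated data. A permutation of 3 against 3 arrays was not used for single genes, since it cannot pass. The members and the gene lists were chosen with earlier results of these data known. Values on each array are given for members without overlap between the groups and a difference of at least 0.58, all Cyp2b genes, the smallest p in each subfamily, and arrays at least 1 log2 unit from the next, besides other members. Alternatives were another quantile normalization, centring on array medians, a filter at the median level, mean of all probe sets, every row, weights per array, a robust prior with a trend, the replicate block, the week of dissection, leaving out arrays, and thresholds of 0.01 and 0.1. Figures used matplotlib 3.10.9.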

Additional observations from a re-analysis of the deposited data

How the results depend on the processing

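No member passed under any alternative run, with thresholds of 0.01 and 0.1 included. Leaving out 1 array gave Cyp3a medians of -0.41 to -0.30, and removing control replicate 1 and ErbB4-/- replicate 3 together gave -0.28. With the labelled week as a covariate, which only the weeks within each group separate from genotype, the Cyp3a median was -0.58, the Cyp1a median 0.050 and the Cyp2c median 0.21. That fit turned the signs of Cyp1a1 (0.12), Cyp2a5 (-0.51), Cyp2b13 (2.49), Cyp2b9 (1.65), Cyp2c39 (1.36), Cyp2c69 (0.73), Cyp2d9 (-0.60), Cyp2e1 (-0.019), Cyp2f2 (-0.0052), Cyp2g1 (0.68), Cyp2r1 (0.15) and Cyp2w1 (0.13). Removing both named arrays turned Cyp2a5 (-0.12), Cyp2b13 (0.36), Cyp2b23 (0.0045), Cyp2b9 (0.093), Cyp2c39 (0.40) and Cyp2g1 (0.29). Leaving out 1 array at a time turned signs within ranges of -0.050 to 0.30 for Cyp2a5, -2.14 to 0.37 for Cyp2b13, -2.29 to 0.087 for Cyp2b9, -1.02 to 0.26 for Cyp2c39, -0.026 to 0.025 for Cyp2e1, -0.22 to 0.33 for Cyp2g1 and -0.13 to 0.21 for Cyp2s1. Cyp2e1 also turned with quantile normalization (-0.0079) and centring (-0.00087), and Cyp2g1 with array weights (0.047). Beyond the arrays left out, the cause was not tested. Of 29 members compared singly, 15 kept their sign in every alternative run, among them Cyp2b10, Cyp2d37-ps, Cyp2j9, Cyp2u1, Cyp3a11, Cyp3a13, Cyp3a44 and Cyp3a59. The members named here had groups without overlap, so leaving out arrays could not turn their signs. For them only the other runs could have done so. Same-numbered mice did not deviate together (r = -0.10, 0.034 and -0.050 across genes for replicates 1 to 3). Pairs of different numbers gave r from -0.077 to 0.10. No pairing by number was seen, but so few values cannot exclude one. With the replicate block 0 members passed, the lowest adjusted p over members (limma) being 0.780, and the median difference of the members was -0.043, as without the block. That median ran from -0.086 to -0.012 with 1 array left out and turned sign with array weights (0.0016), the labelled week (0.018) and both named arrays removed (0.0045). Removing both also turned the medians of Cyp2b (0.0045) and Cyp2c (0.068). The Cyp2j median turned without control replicate 2 (0.035) and over genes at or above the median level (0.0036), as did Cyp1a in the latter (0.016). The Cyp2a median turned with array weights (0.019) and without control replicate 1 (0.065) or ErbB4-/- replicate 1 (0.00021). The Cyp2d and Cyp3a medians kept their sign in every alternative run. With 4 of 7 Cyp3a members lower without overlap, leaving out arrays could not turn the Cyp3a median. A pseudocount had no use on log2 values and was not run. Signal over background is unknown here, which limits what can be said of the 19 members below the median level.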

Other observations

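Exactly equal values on at least 2 arrays occurred for 12752 of 22180 genes, 57.5%, and for 14 of 59 members. Among the 40 members at or above the median level of all genes, 3 had such ties. Cyp2e1, with the same value on all 3 ErbB4-/- arrays, is one of them, and Cyp2j5 is another, with 12.44 both in control replicate 3 and in ErbB4-/- replicate 1. The reason for the ties was not tested.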
